A study of Sus scrofa with 12 samples.

Results

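The axoneme is the microtubule core of the sperm tail, and the outer dense fibres are the stiff cables that run alongside it. The genes described here were chosen by symbol alone, as every coding gene named CFAP, DNAH, DNAI, DNAAF, RSPH, TEKT, ODF, DRC or SPAG followed by a digit, and 79 of the 21674 genes in the coding-gene table met this rule. They comprised 13 DNAH genes (dynein heavy chains), 2 DNAI genes (dynein intermediate chains), 4 DNAAF genes (assembly factors of the dynein arms), 6 RSPH genes (radial spokes), 3 DRC genes (the nexin-dynein regulatory complex), 4 TEKT genes (tektins), 8 ODF genes, 28 CFAP genes (other cilia and flagella associated proteins) and 11 SPAG genes (sperm associated antigens). CFAP57 was listed as 2 separate assembled genes, and both are counted.

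Testis RNA of Hezuo and Landrace pigs was sequenced at 2 ages, in 3 biological replicates per group and 12 libraries in all, to compare the breeds and the ages. The groups were Ha (testis of Hezuo boars aged 30 days), Hb (testis of Hezuo boars aged 120 days), La (testis of Landrace boars aged 30 days) and Lb (testis of Landrace boars aged 120 days). The testes were obtained by castration. Estimated mRNA counts came to between 17165519 and 23758931 per library.

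In a motile sperm tail, dynein arms on the outer microtubule doublets slide them against each other, while radial spokes and the central pair of microtubules govern when each arm works. Dynein arms are assembled in the cytoplasm by dedicated factors before they enter the tail. Spermatids build the tail after meiosis, and the motile cilia of airway and efferent duct cells use many of the same proteins together with paralogues of their own.

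Levels are given as FPKM (fragments per kilobase of transcript, scaled to sequencing depth), which allows genes of different length to be compared. Differences are log2 fold changes of scaled counts with their standard error, over 3 libraries against 3. A gene was called when its adjusted p was under 0.05 and its absolute log2 fold change was over 1. For 40 of the 79 genes some estimated counts were not whole, so that their reads may have been shared with other features and their values are less certain.

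One library stood apart for these genes. Hb2 had the lowest scaled count of the 3 Hb libraries in 60 of the 77 members with counts in that group (77.9%), against 38% of the genes tested in Ha vs Hb. Hb1 stood apart in another way, with a summed level of 7 Leydig cell markers of 2180 FPKM against 189 in Hb2 and 128 in Hb3. The numbers of genes called in comparisons that include Hb are therefore also given without each of these libraries.

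Markers of germ cells moved with age together with the axoneme genes. The 9 spermatid markers, of which PRM1 was the most abundant in each group, summed to 5.3, 6.58 and 6.28 FPKM in Ha and to 4671, 5178 and 6884 in Hb. In Landrace they summed to 9.9, 9.08 and 4.25 FPKM in La and to 3500, 2915 and 3155 in Lb. Of these 9 markers 8 were tested with age in each breed, and 8 rose in each. The 8 spermatocyte markers, led by MEIOB in La and PIWIL1 in the other groups, summed to 10.5, 11 and 6.5 FPKM in Ha, 151, 157 and 134 in Hb, 5.4, 4.76 and 4.41 in La, and 116, 110 and 124 in Lb. All 8 spermatocyte markers rose with age in both breeds. The 10 spermatogonial markers, led by ZBTB16 in La and DAZL in the other groups, summed to 69.3, 65.5 and 52.9 FPKM in Ha, 31.6, 48.2 and 35.4 in Hb, 37.2, 36.6 and 38.7 in La, and 45.5, 43 and 46.5 in Lb. With age 2 of them rose and 6 fell in Hezuo, and 3 rose and 5 fell in Landrace.

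Somatic markers mostly fell with age, relative to the other RNA of a library. Such a fall does not measure a loss of cells, and the study's histology reported more Sertoli cells with age. The 8 Sertoli cell markers, led by INHA at 30 days and CLDN11 at 120 days, summed to 782, 751 and 973 FPKM in Ha, 181, 288 and 216 in Hb, 1508, 1770 and 1632 in La, and 311, 385 and 371 in Lb, and 4 of 8 fell in each breed. Leydig cell markers, led by CYP17A1 at 30 days and INSL3 at 120 days, summed to 5487, 5009 and 4883 FPKM in Ha, 7771, 5341 and 6281 in La, and 2708, 4057 and 1712 in Lb, and 4 of 7 fell in Hezuo and 5 of 7 in Landrace. The 10 peritubular and stromal markers, led by ACTA2 in Hb and COL3A1 in the other groups, summed to 976, 950 and 978 FPKM in Ha, 102, 101 and 66.5 in Hb, 1341, 1224 and 1512 in La, and 530, 516 and 562 in Lb, and 8 of 10 fell in Hezuo while 5 fell and 1 rose in Landrace. Endothelial markers, led by VWF in each group, summed to 93.7, 94.5 and 84.4 FPKM in Ha, 13.9, 26.7 and 15.7 in Hb, 97.9, 78.3 and 91 in La, and 28.2, 45.7 and 28.6 in Lb, and 5 of 5 fell in Hezuo and 3 of 5 in Landrace. Macrophage markers, led by CD163 in Ha and CSF1R in the other groups, summed to 40.3, 32.7 and 32.6 FPKM in Ha, 3.49, 4.56 and 2.24 in Hb, 38.3, 33 and 36.3 in La, and 5.91, 9.64 and 9.91 in Lb, and 5 of 5 fell in Hezuo and 4 of 5 in Landrace.

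Epithelia of the ducts that leave the testis also carry motile cilia, and their markers were measured for that reason. The 8 markers of multiciliated epithelium, led by TPPP3 at 30 days and FAM183A at 120 days, summed to 18, 11.4 and 15.4 FPKM in Ha, 53.8, 46.3 and 42.9 in Hb, 9.46, 7.63 and 9.53 in La, and 55.5, 48.9 and 48 in Lb. Of the 7 tested with age, 2 rose and 2 fell in Hezuo, and 3 rose and 1 fell in Landrace. MCIDAS, a switch of the multiciliated fate, stood between 0.03 and 0.07 FPKM in Ha and at no more than 0.02 in each of the other libraries. FOXJ1, also on this list, had means of 0.593 FPKM in Ha, 16.3 in Hb, 0.137 in La and 12.6 in Lb. FOXJ1 was called higher with age in both breeds. The 6 markers of rete testis and duct epithelium found in the table, led by KRT19 in Ha, EPCAM in Hb, CLDN3 in La and CLDN4 in Lb, summed to 11.7, 9.26 and 11.4 FPKM in Ha, 27.7, 16.7 and 39.1 in Hb, 11.6, 9.5 and 9.57 in La, and 12.5, 24.1 and 11.4 in Lb, and of 5 tested 3 rose and 1 fell in each breed. No gene of these marker lists was at 3 counts or fewer in every library. In whole testis, more cells of a type and more RNA per cell cannot be told apart, and the part of these cell types in the results below was not tested.

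With age the axoneme and outer dense fibre genes rose nearly as a body. Their summed level was 120, 122 and 106 FPKM in Ha and 3072, 2452 and 3270 in Hb, and it was 94.1, 89.6 and 89.6 in La and 2278, 2370 and 2218 in Lb. Every library of 120 days lay far above every library of 30 days, and the summed mean was 25.2 times higher in Hb than in Ha and 25.1 times higher in Lb than in La. They made up between 0.0471% and 0.0611% of all estimated counts in the libraries of 30 days and between 0.935% and 1.34% in those of 120 days. At 30 days 16 members exceeded 1 FPKM in all 6 libraries, and at 120 days 65 did.

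Of the 79 genes, 74 had enough counts to be tested in Hezuo, and 70 were called higher in Hb than in Ha, where 28.2% of all genes tested were called higher. None was called lower by edgeR, where 23.2% of all genes tested were called lower, and none was lower at an unadjusted p under 0.05 or in DESeq2. In Landrace 74 were tested and 67 were called higher in Lb than in La, against 27.5% of all genes tested. Again 0 were called lower by edgeR, against 20.1% of all genes tested, with 0 lower at an unadjusted p under 0.05 and 0 in DESeq2. The median log2 fold change of the members tested was 5.27 in Hezuo (5.17 with genes at the count floor set to their bound), beside -0.02 for all genes tested. The corresponding median in Landrace was 5.03 (5.02 with such genes at their bound), beside 0.01 for all genes. Called in both breeds were 65 members, in either 72 and in neither 7. A member that was nearly silent at 30 days passed the count filter only through its level at 120 days, so these counts over the genes tested are a description.

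Scaling by library size alone moved the median log2 fold change of all genes by -0.30 in Ha vs Hb, by -0.17 in La vs Lb and by 0.15 in the interaction. It changed the split of all genes called in Ha vs Hb from 4666 higher and 3844 lower to 3978 higher and 5039 lower, and in La vs Lb from 4574 and 3352 to 4159 and 4040. With limma on log2(FPKM + 0.1) the split was 3596 higher and 5735 lower in Ha vs Hb and 3806 and 4445 in La vs Lb. Under library size alone 68 members were still called higher in Hezuo and 66 in Landrace, with 0 lower in each. Without Hb2 the count in Hezuo was 70, and without Hb1 it was 67.

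**Figure D1:**
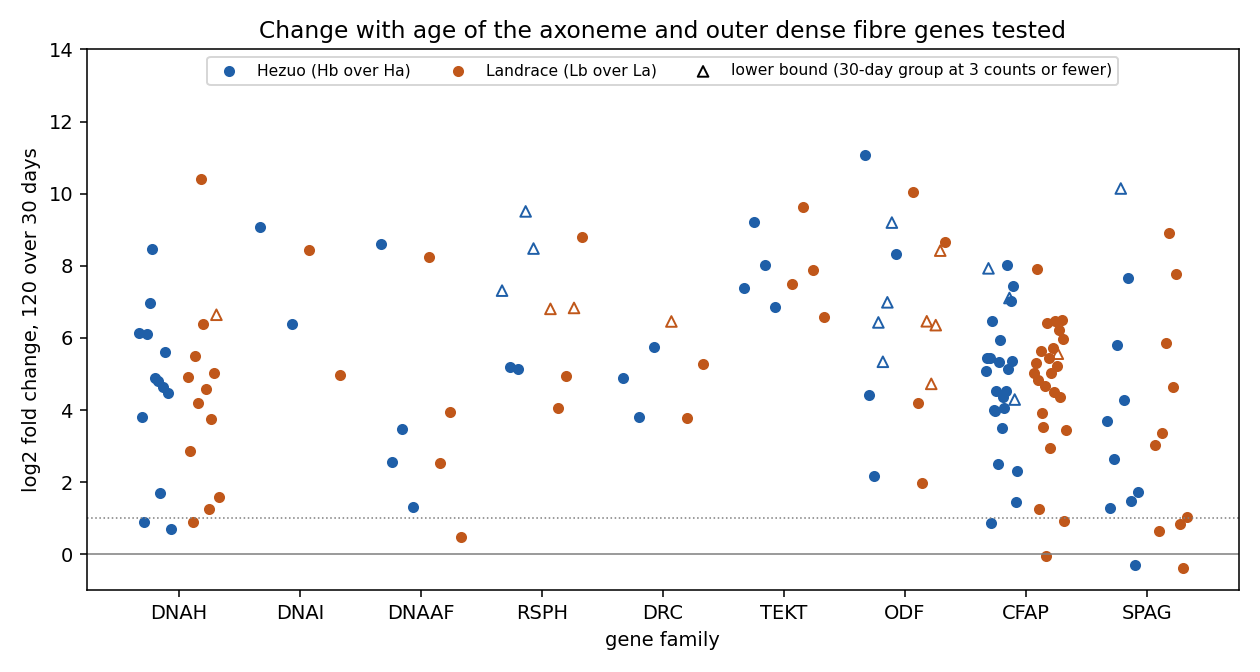
Log2 fold change from 30 to 120 days (vertical axis) of each member tested, by gene family (horizontal axis), with 1 point per gene and breed, filled circles for fitted values, open triangles for lower bounds where the 30-day group had 3 counts or fewer in each library, and a dotted line at 1. Fitted values reached 11.06 for ODF1 in Hezuo and 10.42 for DNAH17 in Landrace, and the lowest were -0.29 and -0.38 for SPAG8.

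Among the outer arm dynein heavy chains, the motor subunits that set beat frequency, DNAH17 was the most abundant at 120 days. DNAH17, a chain used in sperm tails, stood at 0.28, 0.27 and 0.05 FPKM in Ha and at 65.0, 29.6 and 53.4 in Hb. It stood at 0.11, 0.01 and 0.00 FPKM in La and at 38.1, 60.5 and 41.3 in Lb. Ages were far apart in each breed, Hb2 was the lowest of Hb, and the breeds overlapped at 120 days. The log2 fold change was 8.48 ± 0.75 in Hezuo (adjusted p = 6.30e-05) and 10.42 ± 0.79 in Landrace (adjusted p = 7.45e-06). Over the alternatives DNAH17 ranged from 5.32 to 8.79 in Hezuo and from 5.49 to 13.30 in Landrace, where La had 44, 4 and 0 counts. DNAH8, its partner chain in sperm, stood at 0.00, 0.08 and 0.00 FPKM in Ha and 0.90, 0.23 and 0.11 in Hb, and at 0.00 in each La library and 0.68, 0.31 and 0.77 in Lb. Its counts were not whole and its level was low in every library, with Hb1 well above Hb2 and Hb3. DNAH8 was called higher in Hb than in Ha (log2 4.47 ± 1.5, adjusted p = 0.0301), but not without Ha1, Ha3 or Hb1 nor in DESeq2 or limma on log2(FPKM + 1), with adjusted p between 0.0065 and 0.111 over the alternatives. In Landrace it was at least 100-fold higher in Lb than in La (adjusted p = 4.03e-05), and was not called in limma on log2(FPKM + 1).

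The outer arm chains of airway cilia, DNAH9, DNAH5 and DNAH11, had smaller fold changes with age than the other heavy chains. That difference was not tested. DNAH9 stood at 5.13, 4.42 and 4.11 FPKM in Ha and at 4.57, 6.56 and 4.51 in Hb, and at 2.22, 2.53 and 1.97 in La and 5.93, 5 and 5.21 in Lb. In Hezuo the ages overlapped in FPKM, whereas in Landrace each library of 120 days was above each of 30 days. The log2 fold change was 0.70 ± 0.14 in Hezuo (adjusted p = 0.00367), short of the fold threshold, and 1.60 ± 0.14 in Landrace (adjusted p = 1.73e-05), called in each alternative but limma on log2(FPKM + 1). The difference between these changes was 0.89 ± 0.21 (adjusted p = 0.0285), also short of the fold threshold. DNAH5 stood between 0.24 and 0.44 FPKM at 30 days and between 0.45 and 1.03 at 120 days. Its log2 fold change was 1.69 ± 0.29 in Hezuo and 1.25 ± 0.28 in Landrace (adjusted p = 0.00161 and 0.00373), and the second was no longer called without Lb3 or in either limma setting, nor the first in limma on log2(FPKM + 1). DNAH11 ranged from 0.37 to 0.63 FPKM at 30 days and from 0.51 to 0.75 at 120 days, with a log2 fold change of 0.90 in both breeds, and was called in neither.

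The 8 inner arm heavy chains, which shape the bend of the tail, were called higher with age in both breeds. DNAH2 was the most abundant of them at 120 days, at 33.5, 32.4 and 33.8 FPKM in Hb and 24.3, 34.7 and 28.1 in Lb. At 30 days it stood at 2.02, 1.69 and 1.08 FPKM in Ha and at 0.45, 0.43 and 0.42 in La. The breeds thus overlapped at 120 days, while at 30 days each Ha library exceeded each La library. DNAH2 rose by 4.88 ± 0.26 on the log2 scale in Hezuo (adjusted p = 7.50e-06) and by 6.38 ± 0.18 in Landrace (adjusted p = 6.21e-08). DNAH12 had the smallest adjusted p of the family in both breeds, at 0.37, 0.40 and 0.34 FPKM in Ha, 20.8, 16.3 and 16.7 in Hb, 0.36, 0.32 and 0.41 in La, and 14.1, 12.3 and 13.2 in Lb. Its ages were far apart in both breeds, and its log2 fold change was 6.10 ± 0.21 in Hezuo (adjusted p = 1.73e-06) and 5.49 ± 0.14 in Landrace (adjusted p = 3.90e-08).

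The remaining inner arm chains differed more in their level at 30 days than at 120 days. DNAH10, the most abundant of these at 30 days with 1.94 to 2.75 FPKM, rose 14.1-fold in Hezuo and 7.25-fold in Landrace. DNAH6, at 0.77 to 1.42 FPKM at 30 days, rose 25-fold and 13.5-fold. DNAH1 rose 69.8-fold in Hezuo, DNAH7 48.9-fold and DNAH3 27.9-fold, and the corresponding values in Landrace were 30.3, 32.8 and 23.9. DNAH14 was the least abundant inner arm chain, at 0.03, 0.00 and 0.17 FPKM in Ha, 6.47, 7.05 and 4.51 in Hb, 0.37, 0.44 and 0.18 in La, and 5.55, 5.31 and 3.62 in Lb. Its log2 fold change was 6.98 ± 0.99 in Hezuo, with 2.70 to 9.28 over the alternatives, and 4.20 ± 0.34 in Landrace.

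**Figure D2:**
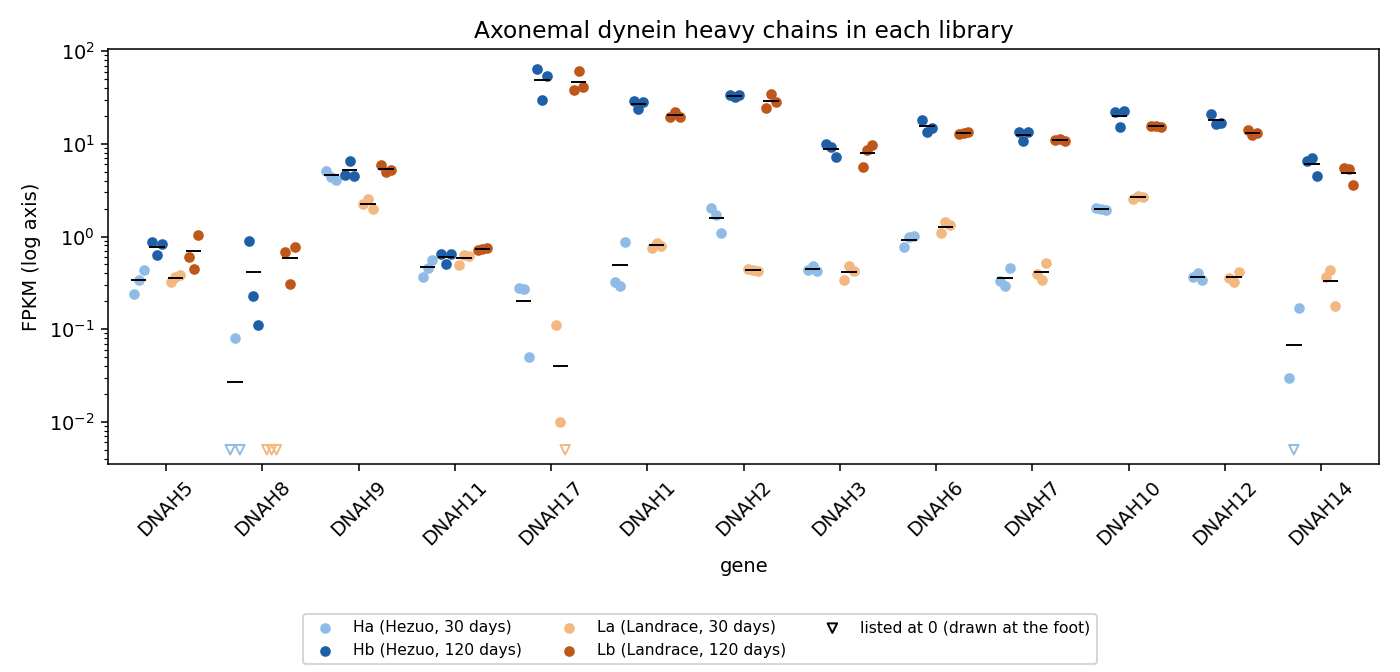
FPKM on a log axis (vertical) of the 13 axonemal dynein heavy chains (horizontal), with 1 point per library, bars at the mean of the 3 libraries of a group, and open triangles at the foot for libraries listed at 0. DNAH17 and DNAH2 had the highest means at 120 days (48 and 31.1 FPKM over the 6 libraries), DNAH9 was already at 4.55 FPKM in Ha, and DNAH8 and DNAH11 stayed at or below 0.90 FPKM in each library.

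The dynein intermediate chains DNAI1 and DNAI2 anchor the outer arm. DNAI1 stood at 0.03, 0.05 and 0.09 FPKM in Ha and 22.2, 19.4 and 24.4 in Hb, and at 0.07, 0.05 and 0.08 in La and 16.0, 19.7 and 21.1 in Lb. No age overlapped the other, and the change was 9.07 ± 0.35 in Hezuo and 8.44 ± 0.22 in Landrace on the log2 scale (adjusted p = 2.32e-06 and 3.90e-08). DNAI2 stood at 0.56, 0.86 and 0.72 FPKM in Ha and at 48.5, 12.9 and 66.7 in Hb, where Hb2 was far below the other libraries. In La it stood at 1.38, 1.13 and 1.03 FPKM and in Lb at 34.6, 29.2 and 26.5, all of them between Hb2 and Hb1. DNAI2 rose by 6.38 ± 0.70 in Hezuo and by 4.98 ± 0.21 in Landrace (adjusted p = 0.000179 and 2.37e-07).

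Of the assembly factors, DNAAF1, which is needed for preassembly of the arms, was the second most abundant member of all at 120 days. DNAAF1 stood at 1.68, 1.15 and 0.77 FPKM in Ha and at 369, 205 and 413 in Hb. In Landrace it stood at 1.38, 1.14 and 1.08 FPKM in La and at 307, 317 and 257 in Lb. Levels of the breeds overlapped at both ages, Hb2 again being the lowest of Hb. The log2 fold change of DNAAF1 was 8.61 ± 0.50 in Hezuo and 8.25 ± 0.20 in Landrace (adjusted p = 1.00e-05 and 3.54e-08). DNAAF2 stood at 1.91 to 3.18 FPKM at 30 days and at 9.4 to 13.3 at 120 days, a rise of 5.91-fold in Hezuo and 5.73-fold in Landrace, and DNAAF4 rose by 3.47 ± 0.25 and 3.94 ± 0.25 on the log2 scale. DNAAF5 was already at 7.13, 6.91 and 6.63 FPKM in Ha and 5.22, 6.15 and 4.84 in La, and stood at 16.2, 8.84 and 10.9 in Hb and 6.84, 5.99 and 5.15 in Lb. The ages overlapped in Landrace and not in Hezuo, where DNAAF5 was called higher at 120 days (log2 1.31 ± 0.27, adjusted p = 0.00348) but not without Hb1, under library size alone or in either limma setting. In Landrace its log2 fold change was 0.48 ± 0.17 (adjusted p = 0.034), short of the fold threshold. The difference between the breeds in this change did not pass its own test (adjusted p = 0.149).

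Assembly genes with other names moved in the same direction. Of 12 found in the table and tested, 10 rose in each breed, against 28.2% of all genes tested in Hezuo and 27.5% in Landrace. The median log2 fold change of the list was 4.04 in Hezuo and 4.19 in Landrace. ZMYND10, a co-chaperone in arm assembly and the most abundant of the list at 120 days, stood at 2.31, 2.05 and 1.84 FPKM in Ha, 209, 140 and 228 in Hb, 1.13, 1.05 and 0.60 in La, and 157, 161 and 128 in Lb. PIH1D1, a subunit of a general chaperone complex, was already at 20.5 to 24.2 FPKM in Ha and 24.8 to 31.6 in La, and was called in neither breed (log2 0.12 and -0.31).

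Radial spoke genes differed in their level at 30 days. RSPH3, a stalk protein, stood at 2.22, 2.32 and 2.55 FPKM in Ha, 69.7, 49.2 and 57.6 in Hb, 1.86, 1.60 and 1.73 in La, and 48.4, 47.6 and 32.9 in Lb. All libraries of 120 days lay above those of 30 days, and the log2 fold change was 5.14 ± 0.23 in Hezuo and 4.95 ± 0.22 in Landrace. RSPH1, a spoke head protein, had at most 2 counts in each 30-day library and stood at 10.9, 7.25 and 10.6 FPKM in Hb and 8.19, 7.25 and 10.5 in Lb, at least 159-fold higher in Hb than in Ha and at least 112-fold higher in Lb than in La. RSPH9, also of the head, stood at 16.4, 4.34 and 19.9 FPKM in Hb and at 12.0, 18.7 and 15.5 in Lb, against at most 0.14 in each 30-day library. Hb2 was the lowest of the 6 libraries of 120 days, and RSPH9 was at least 357-fold higher in Hb than in Ha, a lower bound, and rose by a fitted 8.80 ± 0.62 on the log2 scale in Landrace. That fitted value depended on La2, with 0, 6 and 0 counts in La, and ran from 3.95 to 12.85 over the alternatives. RSPH14, at 0.33 to 0.77 FPKM in the 30-day libraries, rose 36.9-fold in Hezuo and 16.6-fold in Landrace. RSPH4A, the spoke head protein of airway cilia, had at most 10 counts in a library and was tested in no comparison. Its sperm paralogue RSPH6A was at 0.02 FPKM or less at 30 days and is described with the breeds, since its level at 120 days differed between them.

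The nexin-dynein regulatory complex links neighbouring doublets, and its 3 members rose in both breeds. DRC7 stood at 0.85, 0.36 and 1.01 FPKM in Ha, 22.1, 30.4 and 32.7 in Hb, 1.03, 0.99 and 0.70 in La, and 39.5, 18.9 and 25.3 in Lb. DRC3 stood at 1.44, 1.44 and 2.36 FPKM in Ha, 18.7, 14.3 and 18.98 in Hb, 2.13, 1.99 and 1.82 in La, and 21.99, 24.2 and 19.4 in Lb. Ages did not overlap for either gene, and breeds overlapped for DRC7 at both ages. DRC7 rose by 5.74 ± 0.39 in Hezuo and 5.27 ± 0.33 in Landrace, and DRC3 by 3.81 ± 0.29 and 3.78 ± 0.16. DRC1, the scaffold of the complex, was present at low counts in Ha and absent from La, and is described with the breeds.

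The tektins, filaments that brace the inner wall of the doublets, rose more than most families. TEKT2 stood at 0.66, 0.67 and 0.47 FPKM in Ha and 286, 196 and 284 in Hb, and at 0.30, 0.28 and 0.42 in La and 209, 228 and 210 in Lb. TEKT3 stood at 0.30, 0.84 and 0.42 FPKM in Ha and 105, 78.3 and 101 in Hb, and at 0.40, 0.34 and 0.37 in La and 63.7, 74.2 and 77.1 in Lb. Both were below 1 FPKM in every 30-day library and were lowest in Hb2 among the Hb libraries. TEKT2 rose by 9.22 ± 0.33 in Hezuo and 9.62 ± 0.19 in Landrace (adjusted p = 1.92e-06 and 2.81e-08), and TEKT3 by 8.02 ± 0.41 and 7.89 ± 0.16 (adjusted p = 5.94e-06 and 2.81e-08). TEKT1 was at most 0.46 FPKM at 30 days and rose 168-fold in Hezuo and 181-fold in Landrace. TEKT5 was at most 0.91 FPKM at 30 days and varied widely at 120 days, at 53.1, 53.8 and 27.7 FPKM in Hb and 26.4, 61.8 and 31.3 in Lb, with a rise of 116-fold and 95.4-fold.

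ODF1, a major protein of the outer dense fibres, was the most abundant member at 120 days and made up 22.8% of the summed level of the 79 genes in Hb and 18.3% in Lb. ODF1 stood at 0.42, 0.44 and 0.45 FPKM in Ha and at 609, 615 and 782 in Hb, and at 0.85, 0.31 and 0.28 in La and 409, 426 and 421 in Lb. Its ages were far apart in every pair of libraries, each Hb library lay above each Lb library, and in FPKM Hb2 was not the lowest of Hb. ODF1 rose by 11.06 ± 0.24 in Hezuo (adjusted p = 1.65e-06) and by 10.04 ± 0.31 in Landrace (adjusted p = 7.66e-08). ODF2, which forms fibres in sperm and appendages on centrioles in other cells, was already at 9.62, 9.09 and 8 FPKM in Ha and 6.62, 6.97 and 6.91 in La, and stood at 138, 133 and 162 in Hb and 117, 104 and 107 in Lb. Ages and breeds did not overlap, and ODF2 rose 21.5-fold in Hezuo and 18.4-fold in Landrace.

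The other ODF genes were less abundant. ODF4 was at most 0.56 FPKM at 30 days, stood at 130, 80.6 and 122 FPKM in Hb and 92.2, 79.7 and 70.0 in Lb, and rose 320-fold and 401-fold. ODF2L, a centrosomal relative of ODF2, rose 4.47-fold and 3.96-fold from 1.58 FPKM or more at 30 days. ODF3, ODF3B, ODF3L1 and ODF3L2 had 3 counts or fewer in every 30-day library. At 120 days ODF3L2 was the most abundant of them, at 13.2, 10.4 and 13.6 FPKM in Hb and 9.90, 9.02 and 8.54 in Lb, at least 588-fold higher in Hb than in Ha and at least 343-fold higher in Lb than in La. ODF3 was at least 86.3-fold and 88.2-fold higher, ODF3L1 at least 127-fold and 81.9-fold, and ODF3B at least 40.5-fold and 26.5-fold.

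The CFAP genes cover many parts of the tail. Of 25 tested in each breed, 24 were called higher in Hezuo and 23 in Landrace, against 28.2% and 27.5% of all genes tested. CFAP52, a protein inside the doublet wall, was the most abundant at 120 days, with 9.38, 7.36 and 5.54 FPKM in Ha, 93.5, 88.2 and 119 in Hb, 1.91, 2.38 and 2.64 in La, and 66.3, 53.1 and 46.9 in Lb. Ages did not overlap in either breed, nor did breeds at either age, and CFAP52 rose by 4.35 ± 0.25 in Hezuo and 5.02 ± 0.21 in Landrace (adjusted p = 9.93e-06 and 2.28e-07). CFAP36 stood at 3.27, 4.27 and 3.81 FPKM in Ha, 49.1, 35.6 and 41.7 in Hb, 5.20, 3.50 and 3.79 in La, and 41.3, 33.4 and 43.1 in Lb. The breeds overlapped for CFAP36 at both ages, and it rose 15.8-fold and 11.7-fold. CFAP45 and CFAP126, which also line the doublets, rose 40.4-fold and 43.3-fold in Hezuo and 85.4-fold and 39.8-fold in Landrace. Genes of the central pair projections rose as well, among them CFAP46 by 61.8-fold and 43.8-fold, CFAP74 by 174-fold and 89.6-fold, and CFAP221 by 15.9-fold and 15.1-fold. CFAP58, needed for assembly of the tail, rose 257-fold in Hezuo and 89-fold in Landrace. CFAP43, which helps tether inner arm dyneins, rose 23-fold and 25.4-fold.

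Further CFAP genes also rose in both breeds. CFAP61, CFAP100 and the first assembled CFAP57 gene, which act at the spokes and inner arms, rose 35.2-fold, 34-fold and 23-fold in Hezuo and 37.2-fold, 32.4-fold and 22.8-fold in Landrace. CFAP69, CFAP161, CFAP206 and CFAP47 rose 130-fold, 43.7-fold, 88.4-fold and 11.4-fold in Hezuo, and 74.3-fold, 28.6-fold, 49.7-fold and 7.78-fold in Landrace. CFAP54, of the central pair, stood at 0.12, 0.11 and 0.00 FPKM in Ha and 1.51, 0.09 and 0.94 in Hb, and at 0.00, 0.00 and 0.07 in La and 0.59, 1.54 and 0.91 in Lb. Hb2 lay within the range of Ha in FPKM, while the ages did not overlap in Landrace. CFAP54 was called in both breeds (log2 4.05 ± 1.27, adjusted p = 0.0237, in Hezuo and 5.71 ± 0.95, adjusted p = 0.000736, in Landrace). It had 35, 29 and 0 counts in Ha and 0, 0 and 19 in La, so the fitted size in Landrace depended on La3. CFAP157, CFAP65 and CFAP77 were at the count floor in Ha and were at least 244-fold, 138-fold and 19.6-fold higher in Hb. In Landrace CFAP157 and CFAP77 rose 241-fold and 62.2-fold, and CFAP65 was at least 47.3-fold higher in Lb. La had only 5, 0 and 1 counts of CFAP157 and 0, 0 and 6 of CFAP77. The fold of CFAP157 thus depended mostly on La1 and that of CFAP77 on La3.

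A few CFAP genes were called in 1 breed only or were not tested with age. CFAP20, which joins the tubules of a doublet and is found in cilia generally, was the most abundant member at 30 days, at 25.2, 26.5 and 20.2 FPKM in Ha and 15.1, 18.0 and 16.4 in La, and stood at 29.4, 28.9 and 34.7 in Hb and 35.4, 27.4 and 33.2 in Lb. Ages did not overlap, and the log2 fold change was 0.87 ± 0.16 in Hezuo (adjusted p = 0.00242), short of the fold threshold, and 1.27 ± 0.14 in Landrace (adjusted p = 6.85e-05). CFAP97 stood at 6.56, 6.95 and 5.48 FPKM in Ha and 10.1, 15.5 and 11.3 in Hb, and at 4.45, 3.89 and 6.59 in La and 6.77, 7.63 and 8.60 in Lb. CFAP97 rose in Hezuo (log2 1.44 ± 0.16, adjusted p = 0.000173), a call lost in both limma settings as was that of CFAP20 in Landrace, and in Landrace its log2 fold change of 0.93 ± 0.20 (adjusted p = 0.00288) was short of the threshold. The test of a difference between the breeds in the change did not pass for CFAP20 (adjusted p = 0.3) or CFAP97 (adjusted p = 0.255). CFAP44 stood at 0.16, 0.11 and 0.11 FPKM in Ha and 1.56, 0.59 and 0.64 in Hb, but at 0.12, 0.16 and 0.11 in La and 0.31, 0.06 and 0.04 in Lb. It was called in Hezuo (log2 2.51 ± 0.47, adjusted p = 0.00233) and not in Landrace (log2 -0.04 ± 0.72, adjusted p = 0.959), and the test of that difference did not pass (adjusted p = 0.122). CFAP53 had no count in any library, CFAP73 stayed at or below 0.31 FPKM, and the second assembled CFAP57 gene had at most 17 counts.

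The SPAG genes share a name as sperm antigens and not a structure. SPAG6, a central pair protein, stood at 0.93, 1.69 and 1.3 FPKM in Ha, 204, 158 and 197 in Hb, 1.01, 1.04 and 0.90 in La, and 169, 178 and 176 in Lb. Ages were far apart, breeds overlapped at both ages, and SPAG6 rose by 7.66 ± 0.31 in Hezuo and 7.78 ± 0.14 in Landrace (adjusted p = 2.80e-06 and 2.81e-08). SPAG4, a nuclear envelope protein of spermatids, stood at 0.00, 0.04 and 0.03 FPKM in Ha and 62.7, 59.4 and 66.2 in Hb, and at 0.26, 0.04 and 0.02 in La and 46.5, 48.9 and 42.1 in Lb. Each Hb library was above each Lb library, and SPAG4 was at least 1132-fold higher in Hb than in Ha, a lower bound, and rose by a fitted 8.92 ± 0.39 on the log2 scale in Landrace. SPAG5, a protein of the mitotic spindle, stood at 5.87, 6.30 and 4.27 FPKM in Ha, 75.3, 65.2 and 86.0 in Hb, 3.14, 2.31 and 3.08 in La, and 70.6, 47.8 and 54.6 in Lb. At 30 days each Ha library was above each La library, and SPAG5 rose 19.5-fold and 25.2-fold. SPAG16, of the central pair, rose 6.29-fold in Hezuo and 10.2-fold in Landrace. SPAG17, also of the central pair, had 65, 0 and 0 counts in Ha and 869, 833 and 794 in Hb. Each Hb library lay far above each Ha library, and the fitted size of the change (log2 5.81 ± 1.23) depended on Ha1. In Landrace SPAG17 rose by 5.85 ± 0.65 on the log2 scale.

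The remaining SPAG genes varied in their change. SPAG1, which takes part in dynein arm assembly in the cytoplasm, rose 13-fold in Hezuo and 8.1-fold in Landrace. SPAG9, a scaffold for kinases, rose 3.34-fold in Hezuo and 2.04-fold in Landrace. SPAG7 stood at 7.01, 7.44 and 7.97 FPKM in Ha, 14.1, 14.2 and 16.9 in Hb, 10.5, 8.17 and 7.47 in La, and 11.11, 12.4 and 15.8 in Lb, with a log2 fold change of 1.48 ± 0.17 in Hezuo (adjusted p = 0.000252) and 0.85 ± 0.20 in Landrace (adjusted p = 0.00492), the latter short of the threshold and the former called in neither limma setting. The difference between these changes did not pass its own test (adjusted p = 0.147). SPAG8 stayed between 0.15 and 0.51 FPKM in every library, with a log2 fold change of -0.29 in Hezuo and -0.38 in Landrace (adjusted p = 0.484 and 0.436). SPAG11, known from the epididymis, had at most 3 counts in each library, and its relative SPAG11B was called in Hezuo alone (log2 1.29 ± 0.47, adjusted p = 0.0394; 0.65 ± 0.43 in Landrace, adjusted p = 0.213), a difference that did not pass its own test (adjusted p = 0.574).

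At 30 days the breeds were compared over 60 members, and 4 were called lower in La than in Ha, where 4.01% of all genes tested were called lower. Called higher in La were 0 by edgeR, against 3.6% of all genes, with 5 higher and 15 lower at an unadjusted p under 0.05 and 0 higher in DESeq2. In scaled counts the groups did not overlap in 16 members with La below, against 21.6% of all genes, and in 4 they did not overlap with La above, against 20.2%. The median log2 fold change of the members was -0.24, beside 0.00 for all genes, and it was 0.03 in DESeq2 and without a filter on low counts, and -0.02 without Ha2. Summed FPKM was 0.784 times as high in La as in Ha.

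The 4 genes were DNAH2, CFAP52, DRC1 and CFAP99. DNAH2, with the levels given above, was 0.278 times as high in La as in Ha (log2 -1.85 ± 0.23, adjusted p = 0.00237). CFAP52 was 0.313 times as high (log2 -1.68 ± 0.22, adjusted p = 0.00293). DRC1 had 11, 15 and 13 counts in Ha and 0, 0 and 0 in La, while it had 287, 245 and 271 in Hb and 274, 213 and 238 in Lb. It was thus seen in each Ha library and in no La library, at counts that were low and not whole, and was at least 3.85-fold lower in La (adjusted p = 0.00775). CFAP99 stood at 1.54, 2.11 and 1.59 FPKM in Ha, 0.94, 0.44 and 0.57 in La, 7.45, 4.12 and 6.52 in Hb, and 3.43, 7.65 and 6.26 in Lb. Its breeds overlapped at 120 days and not at 30 days, when it was 0.383 times as high in La (log2 -1.38 ± 0.30, adjusted p = 0.0172).

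Single libraries moved these counts. Without Ha3, 7 members were called lower in La, with DNAH9, SPAG5 and CFAP45 added, and 2 were called higher, DNAH1 and DNAH14. DNAH2, DRC1 and CFAP99 were not called in limma on log2(FPKM + 1). CFAP99 was also not called without Ha2, La2 or La3, and its adjusted p ran from 0.000349 to 0.0714 over the alternatives, while CFAP52 was called in all 15 of them. Markers also differed between the breeds at 30 days: 4 of 8 spermatocyte markers were lower in La, among them SYCP1 and PIWIL1, as was DAZL among 9 spermatogonial markers tested, and 3 of 8 Sertoli cell markers were higher. Of 6 markers of multiciliated epithelium tested, 2, FOXJ1 and CCNO, were lower in La. HSD17B3 was the 1 of 7 Leydig cell markers called higher in La. Among all genes tested, 4.01% were called lower in La and 3.6% higher. The part of these cell types in the differences at 30 days was not tested.

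At 120 days 75 members were compared, and 1, RSPH6A, was called lower in Lb than in Hb, where 1.2% of all genes tested were called lower. Called higher in Lb were 0 by edgeR, against 2.65% of all genes, with 2 higher and 31 lower at an unadjusted p under 0.05 and 1 higher, CFAP77, in DESeq2. The log2 fold change was below 0 for 65 members and above 0 for 10, with a median of -0.39 beside 0.00 for all genes tested. In scaled counts, 25 members had each Lb library below each Hb library, against 16.3% of all genes, and 2 had each above, against 16%. Summed FPKM was 0.781 times as high in Lb as in Hb. Across the other scalings, filters and left-out libraries this median lay between -0.52 and -0.22.

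RSPH6A, the spoke head protein of sperm, stood at 14.9, 7.39 and 21.7 FPKM in Hb and at 3.29, 2.27 and 3.41 in Lb. Each Hb library, Hb2 included, was above each Lb library, although the Hb libraries differed among themselves almost 3-fold. RSPH6A was 0.184 times as high in Lb (log2 -2.44 ± 0.39, adjusted p = 0.0199). It was at least 729-fold higher in Hb than in Ha and at least 114-fold higher in Lb than in La. Its counts were not whole, and without Hb3, Lb1, Lb2 or Lb3 it was not called, with adjusted p from 4.30e-09 to 0.0888 over the alternatives. ODF1, SPAG1, CFAP52, CFAP221, CFAP97 and CFAP74 had an adjusted p under 0.05 and a log2 fold change between -0.97 and -0.70, short of the fold threshold. For ODF1 the log2 fold change was -0.79 ± 0.15 (adjusted p = 0.0275).

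Leaving out Hb2 raised the number called lower in Lb from 1 to 5, namely RSPH6A, CFAP65, DNAAF5, DNAI2 and CFAP52, and leaving out Hb3, Lb2 or Lb3 lowered it to 0. Without Hb1 the call was RSPH6A, and without Lb1 it was CFAP44 alone. DESeq2 called 4 lower, RSPH6A, CFAP44, DNAAF5 and CFAP65. Of the marker lists, 5 of 10 peritubular and stromal markers were higher in Lb, as were PECAM1 among 5 endothelial and AIF1 among 5 macrophage markers, and AKAP4 was the 1 of 9 spermatid markers called lower. Among all genes tested, 2.65% were called higher in Lb and 1.2% lower. Spermatid markers had a median log2 fold change of -0.80, spermatocyte markers of -0.39 and spermatogonial markers of 0.24 between the breeds. The medians were 1.95 for Leydig cell, 1.66 for peritubular and stromal, 1.22 for macrophage, 0.83 for endothelial and 0.51 for Sertoli cell markers. They were 0.06 for multiciliated epithelium and -0.22 for rete testis and duct epithelium. The part of these cells in the differences at 120 days was not tested.

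**Figure D3:**
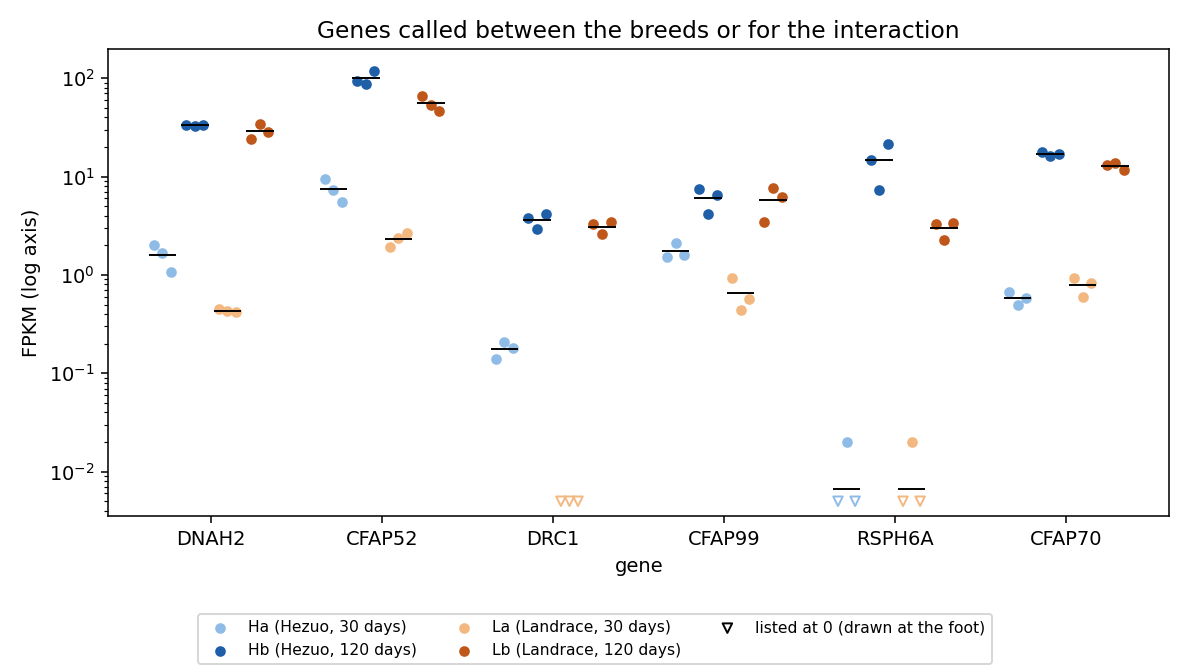
FPKM on a log axis (vertical) of the genes called between the breeds or for the interaction of breed and age (horizontal), with 1 point per library, bars at the mean of the 3 libraries of a group, and open triangles at the foot for libraries listed at 0. DNAH2 and CFAP52 lay lower in La than in Ha (means 0.433 against 1.6 and 2.31 against 7.43 FPKM), DRC1 was at 0 in La, and RSPH6A had means of 14.6 FPKM in Hb and 2.99 in Lb.

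Whether the change with age differed between the breeds was tested over the 12 libraries, as the change in Landrace minus the change in Hezuo. Of 75 members tested, DRC1 and DNAH2 were called for a larger rise in Landrace, against 3.51% of all genes tested, and CFAP70 for a smaller one, against 1.62%. The median difference of the members was -0.42 on the log2 scale, beside 0.02 for all genes, and lay between -0.51 and -0.17 over the alternatives (-0.25 without Ha1, -0.24 without Hb1, -0.21 without La2), and 6 were higher and 16 lower at an unadjusted p under 0.05. DNAH2 rose by 1.49 ± 0.29 more in Landrace than in Hezuo on the log2 scale (adjusted p = 0.0157). For DRC1 the difference was at least 1.55 with La set to 3 counts per library (adjusted p = 0.00371), and its rise was 4.89 ± 0.31 in Hezuo and at least 87.9-fold in Landrace. Both genes thus differed between the breeds at 30 days and overlapped at 120 days.

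CFAP70, which sits at the base of the outer arm, stood at 0.67, 0.49 and 0.58 FPKM in Ha, 17.9, 16.1 and 16.9 in Hb, 0.94, 0.59 and 0.82 in La, and 13.1, 13.7 and 11.7 in Lb. The breeds overlapped at 30 days, and at 120 days each Hb library was above each Lb library. The rise of CFAP70 was 5.35 ± 0.19 in Hezuo and 4.35 ± 0.20 in Landrace, a difference of -1.01 ± 0.26 (adjusted p = 0.0404). This call rested on the choice of libraries and scaling. CFAP70 passed in 6 of 20 alternatives, with adjusted p from 0.00494 to 0.103, and was lost without Ha1, Ha2, Ha3, Hb1, Hb3, La1, La3, Lb1, Lb2 or Lb3. It was also lost with library size alone, in both limma settings and with the replicate number as a block, where CFAP58 was called in its place. Both limma settings called RSPH6A for a smaller rise in Landrace, joined by CFAP44 on log2(FPKM + 0.1). Without La1 the 1 call was CFAP58, and without Lb1 it was CFAP44. Without Hb2, 6 members were called for a smaller rise in Landrace, DNAH10, DNAI2, DNAH6, CFAP70, DNAAF5 and CFAP58, and without Ha3 there were 2, DNAH1 and DNAH14. The number called for a smaller rise was 0 without Ha1, Ha2, Hb1, Hb3, La3, Lb2 or Lb3. DNAH2 and DRC1 were each called in 19 of 20 alternatives, and 1 more gene joined them without Ha3 (CFAP45), Hb2 or La2 (DNAH9 in both). In the marker lists, 5 of 10 peritubular and stromal markers and DAZL and KIT among 10 spermatogonial markers were called for a difference above 0. So were TPPP3 among 7 multiciliated, PECAM1 among 5 endothelial and AIF1 among 5 macrophage markers. PRM1 and ACRV1 among 9 spermatid markers were called for one below 0. Among all genes tested, 3.51% were called above 0 and 1.62% below. The part of these cell types in these differences was not tested.

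Most axoneme genes with other names also rose with age. The coding genes included 56 of this list, and 52 were tested in each breed. In Hezuo 50 rose and in Landrace 49, against 28.2% and 27.5% of all genes tested. The median log2 fold change of the list was 4.62 in Hezuo and 4.12 in Landrace (4 with genes at the floor set to their bound). TPPP2, a tubulin binding protein and the most abundant of the list at 120 days, stood at 0.37, 0.74 and 0.54 FPKM in Ha, 610, 607 and 729 in Hb, 1.51, 0.48 and 0.51 in La, and 435, 404 and 410 in Lb. Each Hb library of TPPP2 was above each Lb library, and it rose by 10.68 ± 0.29 in Hezuo and 9.25 ± 0.35 in Landrace. CCDC39 and CCDC40, the pair that sets the repeat of the doublets, rose by 3.84 ± 0.22 and 5.18 ± 0.24 in Hezuo and by 3.10 ± 0.21 and 5.35 ± 0.18 in Landrace. DYNLRB1 and DYNLL2, light chains that also serve cytoplasmic dynein, were called in neither breed (log2 -0.95 and -0.10 in Hezuo, -0.42 and 0.01 in Landrace).

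Between the breeds at 30 days, AK7 and RIBC2 of this list were lower in La and CCDC114 was higher. Of all genes tested at 30 days, 4.01% were called lower in La and 3.6% higher. CCDC114, a part of the outer arm docking complex, stood at 0.34, 0.44 and 0.43 FPKM in Ha and 0.98, 1.14 and 0.69 in La, without overlap (log2 1.26 ± 0.31, adjusted p = 0.024). At 120 days WDR78, an inner arm subunit, was the 1 of 53 called, lower in Lb (log2 -1.24 ± 0.18, adjusted p = 0.0168). Of all genes tested at 120 days, 1.2% were called lower in Lb. The change with age differed for EFCAB2 (-1.25 ± 0.20) and CCDC114 (-1.80 ± 0.40), which rose less in Landrace, and for AK7 (1.49 ± 0.41), which rose more. For this test 53 of the list were tested, and 1.62% of all genes were called below 0 and 3.51% above. Of the 10 assembly genes tested at 30 days, ZMYND10 was the 1 called (lower in La, adjusted p = 0.0305). Of the 12 tested for a difference in the change with age, ZBBX was the 1 called. It rose less in Landrace (-1.61 ± 0.28, adjusted p = 0.00996).

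Transcription regulators of ciliary genes moved less uniformly. Of 16 tested, 8 rose in Hezuo and 7 in Landrace, against 28.2% and 27.5% of all genes tested. The medians of the list were 0.97 and 0.87 on the log2 scale. RFX2, a regulator of cilium and spermatid genes and the most abundant of the list at 120 days, stood at 2.41, 2.39 and 2.2 FPKM in Ha, 112, 69.5 and 115 in Hb, 1.44, 1.73 and 1.22 in La, and 90.0, 91.7 and 67.5 in Lb. It rose by 5.95 ± 0.29 in Hezuo and 6.18 ± 0.23 in Landrace, with the ages far apart and the breeds overlapping at 120 days. FOXJ1, the regulator of motile cilia, stood at 0.52, 0.64 and 0.62 FPKM in Ha, 19.3, 10.5 and 19.2 in Hb, 0.16, 0.16 and 0.09 in La, and 15.0, 11.3 and 11.4 in Lb. FOXJ1 rose by 5.29 ± 0.35 in Hezuo and 6.84 ± 0.27 in Landrace, and at 30 days it was lower in La (log2 -2.09 ± 0.36, adjusted p = 0.00724), as was CCNO (log2 -1.37 ± 0.27, adjusted p = 0.0116). These were the 2 of 16 tested that were called at 30 days, against 4.01% of all genes called lower. FOXJ1, MCIDAS, GMNC and CCNO are also among the markers of multiciliated epithelium. SOX30 and CREM, regulators of spermatid genes, rose by 5.46 ± 0.18 and 3.38 ± 0.16 in Hezuo and by 5.54 ± 0.20 and 3.28 ± 0.13 in Landrace. RFX3 was called in neither breed (log2 -0.07 and -0.47).

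Genes of intraflagellar transport form the carrier system that builds cilia. These genes started from a higher summed level than the 79 members and had smaller medians with age, a difference not tested. Their summed level was 164, 172 and 164 FPKM in Ha, 469, 410 and 451 in Hb, 148, 159 and 152 in La, and 389, 383 and 417 in Lb. Of 25 tested, 23 rose in Hezuo and 20 in Landrace, against 28.2% and 27.5% of all genes tested. The medians of the list were 1.95 and 1.87 on the log2 scale. IFT172, the most abundant at 120 days, rose by 2.14 ± 0.17 and 2.18 ± 0.10. Between the breeds their median was -0.10 at 30 days and -0.28 at 120 days, with no gene past the thresholds. IFT74 and KIF3B rose less in Landrace than in Hezuo (differences of -1.25 ± 0.23 and -1.06 ± 0.23, adjusted p = 0.0115 and 0.0213). They were the 2 of 25 called for this difference, against 1.62% of all genes tested.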

How the data were processed

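Per the submitters' processing notes and the study's methods, strand-specific dUTP libraries depleted of ribosomal RNA were read as paired 150-base reads, cleaned with fastp 0.18.0, freed of ribosomal reads with Bowtie2 2.2.8, aligned to Sus scrofa 11.1 with HISAT2 2.1.0 and assembled with StringTie 1.3.4. The estimated counts of mRNA per gene were made by the authors before deposit, and the sources used here do not give the counting tool. The FPKM values, scaled by length and mapped fragments by the authors, are used as deposited. Library totals ran from 17165519 to 23758931.

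Here the counts were rounded and tested in edgeR 4.0.16 over the 6 libraries of each comparison, with its expression filter (minimum count 10), TMM scaling, the quasi-likelihood F-test and Benjamini-Hochberg adjustment over all genes tested. The difference between breeds in the change with age was fitted over the 12 libraries. Standard errors are the absolute log2 fold change over the square root of F. A group with 3 counts or fewer in each library was held to be at the floor, and its fold change is given only as a bound against 3 counts per library. The p values measure the spread between these samples, and an exact test of 3 against 3 libraries could not give a p under 0.1.

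Alternatives were DESeq2 1.42.0, RLE factors, library size alone, no filter on low counts, at least 10 counts in every library of a group, limma 3.58.1 on log2(FPKM + 1) and on log2(FPKM + 0.1), all 12 libraries in 1 fit, the replicate number as a block, no fold threshold, and each library left out in turn. R 4.3.3, Python 3.11.15, pandas 2.3.3, numpy 2.4.6 and matplotlib 3.10.9 were used.

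The members and the lists were chosen with earlier results of these data known. The lists were other axoneme genes, dynein arm assembly genes with other names, ciliary transcription regulators, intraflagellar transport, and markers of spermatogonia, spermatocytes, spermatids, Sertoli cells, Leydig cells, peritubular and stromal cells, multiciliated epithelium, rete testis and duct epithelium, endothelial cells and macrophages. Genes are named with values when they were among the 2 most abundant of a family at 120 days, belonged to the DNAH, TEKT, RSPH or ODF families, had the smallest adjusted p among the genes called, were called between the breeds, or were the 5 most abundant at 30 days or among those called at neither age. Further members that met none of these criteria are also given, most of them more briefly, so that each is accounted for. RefSeq positions were found for 77 of the 79 members. Promoter motifs and protein features were planned and not analysed here. The result of 1 gene of the list of other axoneme genes is not reported here.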

Additional observations from a re-analysis of the deposited data

Results flagged for a closer look

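The change of DRC1 with age was larger in Landrace than in Hezuo by at least 1.55 on the log2 scale, with Landrace at 30 days set to 3 counts per library. The change of DNAH2 was larger in Landrace by 1.49 on the log2 scale. The change of CFAP70 with age differed by -1.01 on the log2 scale, Landrace minus Hezuo. An assembled lncRNA in the span of CFAP221 reached 206 counts in 1 library and stood at 5.41, 2.09 and 0.00 FPKM in Hb. Another, antisense and overlapping the end of the CFAP99 span with most of its length outside it, reached at most 54 counts. One in the span of DNAH3 reached 321 counts and stood at 4.88, 3.77 and 0.00 FPKM in Hb and at 17.00, 13.15 and 7.89 in Lb.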

How the results depend on the processing

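The count of 70 genes called higher in Ha vs Hb lay between 61 (limma on log2(FPKM + 1)) and 73 (no fold threshold), and that of 67 in La vs Lb between 60 and 71 under the same 2 settings. For Ha vs La higher (0), the count was 1 under limma on log2(FPKM + 0.1), 1 with no fold threshold and 0 to 2 with 1 library left out. For Ha vs La lower (4), it was 5 with library size alone, 1 under limma on log2(FPKM + 1), 5 under limma on log2(FPKM + 0.1), 10 with no fold threshold and 3 to 7 with 1 library left out. For Hb vs Lb higher (0), DESeq2 gave 1. For Hb vs Lb lower (1), the count was 4 in DESeq2, 2 with library size alone, 2 with 10 counts in every library of a group, 2 under limma on log2(FPKM + 0.1), 4 with all 12 libraries in 1 fit, 2 with the replicate block, 7 with no fold threshold and 0 to 5 with 1 library left out. For the interaction higher (2), it was 3 with library size alone, 0 under limma on log2(FPKM + 1) and 4 under limma on log2(FPKM + 0.1). It was 3 with no fold threshold and 2 to 3 with 1 library left out. For the interaction lower (1), it was 7 in DESeq2, 2 with RLE factors, 0 with library size alone, 2 under limma on log2(FPKM + 0.1), 3 with no fold threshold and 0 to 6 with 1 library left out. The cause of these moves was not tested. With the replicate block, 68 genes were called higher with age in Hezuo and 67 in Landrace. Deviations of libraries with the same replicate number correlated at -0.0222 to 0.0527, so the numbers do not pair samples.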

Other observations

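Genes of the tail that carry other names were looked at after their values had been seen. The gene annotated as tektin-4 under a locus symbol stood at 0.00, 0.11 and 0.00 FPKM in Ha, 21.08, 21.83 and 18.27 in Hb, 0.02, 0.03 and 0.02 in La, and 16.02, 16.02 and 22.16 in Lb, with a log2 fold change of 9.53 in Hezuo and at least 312-fold in Landrace. DAW1, a factor in the delivery of outer dynein arms, stood at 0.15, 0.00 and 0.00 FPKM in Ha, 16.74, 7.76 and 23.50 in Hb, 0.00, 0.23 and 0.20 in La, and 9.61, 9.94 and 16.39 in Lb. It rose by 8.78 in Hezuo and 6.66 in Landrace on the log2 scale, and Hb2 was the lowest of Hb. The gene annotated as radial spoke head 10 homolog B, also under a locus symbol, stood at no more than 0.24 FPKM in any library and was not tested.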
